A study of Mus musculus with 20 samples.

Results

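The residual nascent transcription of 2842 protein-coding genes was compared between mouse embryonic stem cells held in DRB for 5 h and cells held in triptolide for 2 h, the latest time sampled for each drug. The members are all genes, of 22556 in the deposited table, with a value above 0.5 reads per kilobase in at least 1 of the 2 late columns. Of these, 533 genes lay above 0.5 in both columns, 1454 with DRB only and 855 with triptolide only. The cells were E14-WT, a wild-type line of Mus musculus, grown in serum with leukemia inhibitory factor on gelatin. DRB was given at 100 µM and triptolide at 10 µM, and new RNA was tagged for 10 min with 4-thiouridine (4sU) at 150 µM before capture and sequencing, an assay named in vivo transcription capture (iTC-seq). The study held 20 samples in 10 groups of 2 biological replicates: no drug, DRB for 2 h or 5 h, and triptolide for 1 h or 2 h, each with a labelled group and an unlabelled group that gave the background.

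RNA polymerase II starts at promoters with the help of TFIIH, usually pauses shortly downstream, and is released into the gene body by the kinase CDK9 of P-TEFb. DRB inhibits CDK9 and related kinases and so blocks release into elongation. Triptolide binds XPB, the DNA translocase of TFIIH encoded by Ercc3, and blocks initiation, and it also leads to loss of the largest polymerase subunit. Human histone genes and small nuclear RNA genes have been described as transcribed with little need for P-TEFb, and RNA polymerase III, which makes tRNAs, is much less sensitive to either drug.

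The table gives 1 column per condition, so no value has a replicate error, no difference has a test, and whether a difference exceeds the spread between replicates cannot be told. Values are reads per kilobase of gene after subtraction of background, with negative results set to 0, so a gene at 0 is called listed at 0 and gets no fold. The 5 values of each gene were whole multiples of 1 step, which returned net read numbers, and each read ratio below is followed in brackets by its exact (Clopper-Pearson) 95% interval. They cover counting error only, without replicate spread or the subtracted reads, and are therefore too narrow. The deposited columns held 95622 net reads for DRB 5 h, 7.61% of the no-drug column, and 62512 for triptolide 2 h, 4.97%. Their summed values were 5050 and 3122 reads per kilobase, so the DRB column was the larger in total by both measures. The read ratios below are not corrected for this difference. Whether the authors equalised library depths is not given in the sources used here, and every direction below is on the deposited scale. Of 10 embryonic stem cell markers, 9 lay above 1 read per kilobase without drug, with Dppa5a listed at 0. Against this, 3 of 17 primitive endoderm, 2 of 16 fibroblast or feeder and 4 of 15 neural markers lay above 1. The summed level of the stem cell markers was 419 without drug, 27.6 at DRB 5 h and 5.70 at triptolide 2 h.

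More genes had the higher value with DRB than with triptolide. Counting genes whose log2(value + 1) differed by 1 or more gave 602 with the higher value with DRB, which is 21.2% of the members, and 268 with the higher value with triptolide, which is 9.43%. Over all genes of the table these were 2.67% and 1.19%. With 1 added to each value, a gene below 1 read per kilobase in both late columns cannot reach that difference. All calls in both directions came from the 1307 members above 1. The median difference, DRB minus triptolide, was 0.41 on that scale. Scaling the columns to equal sums of net reads shifted that median to 0.19 and left 449 genes higher with DRB against 424 with triptolide. After quantile normalization there were 450 against 472, and the excess of DRB-high genes over the whole set rested on the deposited scale. Many members carried few reads: 192 had 1 net read in both late columns together, and the median was 12. Among the 1029 members with at least 20 net reads, 294 (28.6%) were higher with DRB and 29 (2.82%) with triptolide. In that deeper set 214 genes were listed at 0 with triptolide and 37 with DRB. The filter sums the reads of both columns, and the members held 53021 net reads with DRB against 23462 with triptolide. It thus favours genes with DRB reads, and the counts of the deeper set are on the deposited scale only. They are no support for an excess with DRB.

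**Figure D1:**
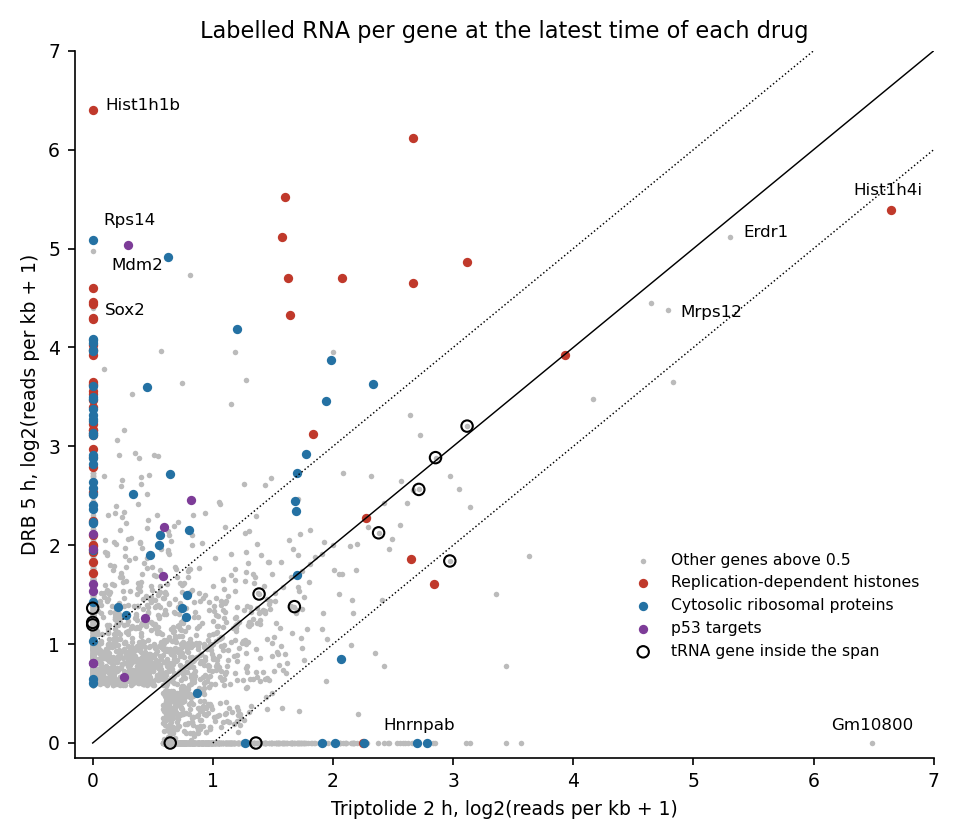
Each point is 1 of the 2842 genes, with triptolide 2 h on the x axis and DRB 5 h on the y axis, both as log2(reads per kb + 1); the solid line marks equal values and the dotted lines a difference of 1. Histone (red), ribosomal protein (blue) and p53 target (purple) genes stack along the left edge, where triptolide values are at 0, while Hist1h4i, Erdr1 and Mrps12 lie high in both columns. Of the 12 genes with a tRNA gene inside their span (open circles), 7 lie between the dotted lines, 3 above them and 2 below.

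The threshold itself separated genes of nearly the same value. Just inside it stood Rab3a, with 0.50025 at DRB 5 h and 0 at triptolide 2 h, and Plcd1, with 0 and 0.501. Just outside stood Tnfrsf12a, with 0.4995 and 0, and Six2, with 0 and 0.499. A gene that entered through 1 column only had to differ in the direction of that column, and no count over members is read as support for a direction.

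Replication-dependent histone genes formed the group with the highest median difference. These short genes without introns supply the histones of newly replicated chromatin, and their mRNAs end in a stem-loop in place of a poly(A) tail. Of 68 in the table, 47 were members, and 41 of these had the higher value with DRB, 3 with triptolide, and 3 were within 1. The median difference was 3.11, against 0.41 for all members. Net reads summed to 693 with DRB and 103 with triptolide, a ratio of 6.73 (5.46 to 8.36). Without Hist1h1d, the histone gene with most reads, the ratio was 5.87 (4.76 to 7.31). The 47 genes held 24.2% of their no-drug reads at DRB 5 h and 3.598% at triptolide 2 h, where 32 of them were listed at 0. All 68 genes together gave 3079 reads per kilobase without drug, 2611 at DRB 2 h and 730 at DRB 5 h, and 128 and 164 with triptolide at 1 h and 2 h.

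Among the linker histone H1 genes, Hist1h1b and Hist1h1a had the highest DRB 5 h values of the histone list. Hist1h1b read 309 reads per kilobase without drug, 268 at DRB 2 h and 83.6 at DRB 5 h, and was listed at 0 at both triptolide times. Hist1h1a read 275, 243 and 68.4 in the same order, then 0 and 5.36 with triptolide. Hist1h1e, which overlaps Hist1h2be, read 28.1, 91.0 and 24.1, then 0 and 5.35. In all 5 linker histone genes the DRB 5 h value was higher by 1 or more in log2 terms, with 294 net reads against 21. The core histones divided alike: 11 of 13 H2A, 9 of 10 H2B, 8 of 10 H3 and 8 of 9 H4 members were higher with DRB. Hist1h4b, an H4 gene, read 145 without drug, 44.9 at DRB 5 h and 2.04 at triptolide 2 h, from 22 reads and 1 read. Hist1h3a and Hist2h3b were the H3 genes with the higher triptolide value, and they rest on 2 and 3 net reads. Many histone genes have near-identical copies, and how reads that match several copies were counted is not given, so single copies are uncertain while the summed values are less so.

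Promoter sequences of 3 histone genes and of Mdm2 are shown to set TATA-containing histone promoters beside that of a p53 target. In Hist1h1a, Hist1h1e and Mdm2 the late read ratio had an interval above 1, while Hist1h2an, with 11 and 3 net reads, had a ratio of 3.67 (0.969 to 20.5) that includes 1. They come from RefSeq for GRCm38.p6, 250 bases before to 50 after the start, 5′ to 3′ on the gene's own strand: Hist1h1a (chr13:23763418-23763717, plus), Hist1h1e (chr13:23622509-23622808, minus), Hist1h2an (chr13:21787199-21787498, minus) and Mdm2 (chr10:117710709-117711008, minus). Capitals mark TATAAA on the gene's strand from 50 to 15 bases before the start, and CCAAT and GGGCGG on either strand, read as ATTGG and CCGCCC on the other one.
Hist1h1a: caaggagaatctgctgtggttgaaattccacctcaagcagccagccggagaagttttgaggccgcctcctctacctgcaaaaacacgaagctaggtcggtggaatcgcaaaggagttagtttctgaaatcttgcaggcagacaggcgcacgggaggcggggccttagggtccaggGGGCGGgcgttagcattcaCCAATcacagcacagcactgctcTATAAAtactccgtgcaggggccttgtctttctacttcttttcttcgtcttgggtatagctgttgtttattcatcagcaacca
Hist1h1e: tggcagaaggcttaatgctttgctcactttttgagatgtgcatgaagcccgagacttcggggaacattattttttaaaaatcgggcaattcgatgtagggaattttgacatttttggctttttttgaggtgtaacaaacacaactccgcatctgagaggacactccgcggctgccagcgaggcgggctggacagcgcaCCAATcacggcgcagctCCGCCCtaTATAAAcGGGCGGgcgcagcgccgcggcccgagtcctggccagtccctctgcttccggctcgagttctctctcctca
Hist1h2an: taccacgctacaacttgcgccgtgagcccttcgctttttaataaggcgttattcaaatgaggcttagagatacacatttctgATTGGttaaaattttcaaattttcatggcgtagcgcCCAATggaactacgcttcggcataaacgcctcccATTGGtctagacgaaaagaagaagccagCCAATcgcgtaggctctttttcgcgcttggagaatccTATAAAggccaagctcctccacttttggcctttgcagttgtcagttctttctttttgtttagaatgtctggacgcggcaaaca
Mdm2: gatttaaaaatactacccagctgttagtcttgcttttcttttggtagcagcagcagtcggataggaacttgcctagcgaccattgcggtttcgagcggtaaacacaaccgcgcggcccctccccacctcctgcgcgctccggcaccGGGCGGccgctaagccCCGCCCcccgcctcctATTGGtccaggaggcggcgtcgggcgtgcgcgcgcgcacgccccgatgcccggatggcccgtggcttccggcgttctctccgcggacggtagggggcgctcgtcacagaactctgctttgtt
Hist1h1a and Hist1h1e each hold a TATAAA just downstream of a CCAAT, Hist1h2an holds 4 CCAAT matches and a TATAAA, and Mdm2 holds no TATAAA in that window.

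Of the 47 histone members, 36 matched a promoter in the RefSeq table. TATAAA stood in 30.6% of them against 3.19% of all 15629 promoters in the table, CCAAT in 83.3% against 39.0%, and GGGCGG in 44.4% against 49.5%. Among the other 214 matched members with at least 20 net reads and the higher value with DRB, the shares were 1.87%, 38.3% and 68.2%. Among the 538 matched members with as many reads and a difference within 1, they were 0.186%, 34.2% and 65.6%. A match is a description of letters and not of a bound factor.

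The cytosolic ribosomal protein genes also mostly had the higher value with DRB. Of 83 in the table, 60 were members, with 44 higher with DRB, 7 higher with triptolide and a median difference of 2.02. Their net reads summed to 2711 and 148, a ratio of 18.3 (15.5 to 21.8). Rps14 alone gave 1064 of the DRB reads, and without it the ratio was 11.1 (9.40 to 13.3). The members, which were picked on these same late columns, held 9.69% of their no-drug reads with DRB and 0.529% with triptolide. The 23 other genes of the list lay at or below 0.5 in both late columns. All 83 genes together gave 7830 reads per kilobase without drug, 2116 at DRB 2 h and 397 at DRB 5 h. With triptolide they gave 47.8 at 1 h and 55.7 at 2 h.

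Rps14, a protein of the small subunit, read 115 without drug, 71.9 at DRB 2 h, 33.0 at DRB 5 h, 0.248 at triptolide 1 h and 0 at triptolide 2 h. It overlaps Ndst1, and whether counting used strand is not given, so reads of the pair cannot be told apart. Rpl3, of the large subunit, read 254, 44.98 and 11.2, then 3.91 and 0, from 189 net reads at DRB 5 h, and it holds small nucleolar RNA genes in its span. Rps28 read 75.7, 51.5 and 29.1, then 0 and 0.542, and it overlaps Kank3, whose values of 17.7, 22.1 and 14.8, then 0 and 0, count much of the same interval. The 7 members of the list with the higher triptolide value rest on 50 net reads together with triptolide and 1 with DRB. All 7 had read above their triptolide 2 h value at DRB 2 h, and 6 of them were listed at 0 at DRB 5 h.

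Among targets of p53, the tumour suppressor that blocked transcription is known to stabilise, none had the higher value with triptolide. The table has 29 of them, of which 12 were members, 8 were higher with DRB and 4 within 1, and the median difference was 1.56. Net reads summed to 1250 and 80, a ratio of 15.6 (12.5 to 19.8). More than any other member, Mdm2 carried this: without it the ratio was 7.40 (5.81 to 9.55), with 7 of 11 members higher with DRB.

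Mdm2 (chr10:117688875-117710758), which encodes the ubiquitin ligase that degrades p53, read 10.9 without drug, 23.7 at DRB 2 h and 31.8 at DRB 5 h, while triptolide gave 0 at 1 h and 0.229 at 2 h. It thus stood at 292% of its no-drug value with DRB and 2.10% with triptolide, and the late columns held 695 and 5 net reads. Mdm4, its p53-binding paralog, read 9.12, 5.74 and 4.50, then 0.648 and 0.760, a ratio of 5.93 (4.43 to 8.06). Zmat3, an RNA-binding protein gene, read 8.00, 9.81 and 2.88 and was listed at 0 with triptolide at both times. Cdkn1a, which encodes the cyclin kinase inhibitor p21, read 10.7, 2.77 and 2.05, then 0 and 0, so it lay below no drug with both drugs. The p53 targets therefore differed among themselves in the level they had with DRB, and Mdm2 was the 1 member of the list at or above no drug at DRB 5 h.

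**Figure D2:**
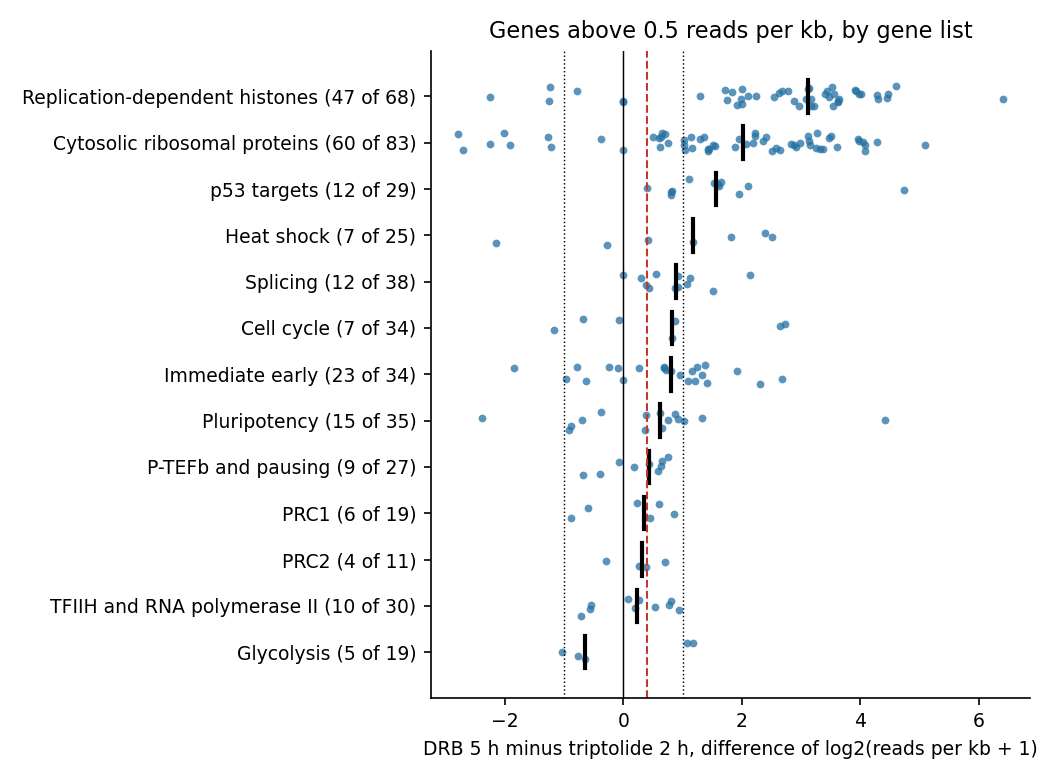
Points are single genes above 0.5 in either late column, by gene list, placed by the difference of log2(reads per kb + 1), DRB 5 h minus triptolide 2 h; brackets give how many of the listed genes were members. Black bars mark list medians, the dashed red line the median of all members at 0.41 and dotted lines a difference of 1; histones (3.11), ribosomal proteins (2.02) and p53 targets (1.56) have the 3 highest medians.

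Immediate early genes, which serum induces without new protein, had 23 members of 34. Of these, 10 (43.5%) were higher with DRB and 1 (4.35%) with triptolide, against 21.2% and 9.43% of all members. The list median was 0.81. Several of the 10 rest on few net reads in the late columns, such as Cyr61 on 4 and 0 and Fos on 7 and 1. Junb, an AP-1 subunit, read 13.1 without drug, 51.1 at DRB 2 h and 5.44 at DRB 5 h, then 2.18 and 0 with triptolide. It overlaps Prdx2 and rests on 20 net reads at DRB 5 h. Myc read 22.7, 14.6 and 1.61, then 0.602 and 0, on 8 net reads at DRB 5 h. Dusp1, a phosphatase of MAP kinases, had reads in both late columns, 57 and 38, with a ratio of 1.5 (0.978 to 2.32) whose interval includes 1.

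The pluripotency list had 15 members of 35, with 3 higher with DRB (20.0%), 1 with triptolide (6.67%) and a median of 0.63. These shares were near the 21.2% and 9.43% of all members. Sox2, which with Oct4 maintains stem cell identity, read 69.6, 52.5 and 20.4 with no drug and the DRB times, and 0 with triptolide at both times, from 50 net reads at DRB 5 h. Pou5f1, which encodes Oct4, read 62.5 without drug and was listed at 0 in both late columns, and it is no member. Nanog read 29.96, 7.98 and 0, then 0 and 0.840, on 6 net reads. Klf2, the member higher with triptolide, read 58.3, 13.0 and 0, then 0 and 4.19.

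Heat shock genes had 7 members of 25 with 4 higher with DRB (57.1%), splicing factors 12 of 38 with 4 (33.3%), and cell cycle genes 7 of 34 with 2 (28.6%). Zfp zinc finger genes had 42 of 360 with 9 (21.4%), near the 21.2% of all members. In the same order, triptolide was higher for 1 (14.3%), 0, 1 (14.3%) and 1 (2.38%), against 9.43% of all members. The medians of these lists were 1.18, 0.89, 0.82 and 0.38, against 0.41 for all members. No member of PRC2 (4 of 11), PRC1 (6 of 19), P-TEFb and pausing (9 of 27) or TFIIH and RNA polymerase II (10 of 30) passed a difference of 1 in either direction. All 4 PRC2 members and most members of the other lists lay below 1 read per kilobase in both late columns. Such genes cannot reach that difference, so their lack of calls was fixed in advance. The medians of these lists were 0.32, 0.34, 0.44 and 0.23, the last of which turned to −0.05 under equal sums and −0.04 under quantile normalization. The PRC2 catalytic gene Ezh2 read 0.599 with DRB and 0.968 with triptolide, at a ratio of 0.619 (0.404 to 0.938). The drug targets' own genes had little signal: Cdk9, at 16.7 without drug, was listed at 0 in both late columns, and Ercc3, at 4.49, read 0 and 0.234. Polr2a, which encodes the largest polymerase subunit, read 8.89 without drug, 0 at DRB 5 h and 0.649 at triptolide 2 h. Glycolysis had 5 members of 19, with 2 (40.0%) higher with DRB and 1 (20.0%) with triptolide. Their median was −0.65, and their pooled read ratio of 1.53 (0.961 to 2.47) had an interval that includes 1. Without Eno1, the member with most reads, the direction reversed: 6 net reads with DRB and 18 with triptolide, a ratio of 0.333 (0.108 to 0.877). Gapdh, a glycolytic enzyme gene, read 132 without drug, then 1.26 with DRB and 0 with triptolide. Actb, a gene used widely as a reference, read 128 without drug and was listed at 0 in both late columns.

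The 12 genes with the highest lower bound of the DRB to triptolide read ratio were Rps14, St5, Nid2, Tet1, Sap30bp, Capzb, Mdm2, Mthfd1, Pfkfb3, Rpl3, Kank3 and Rptor. Of these, 11 passed a difference of 1, 11 were listed at 0 at triptolide 2 h and 9 overlap another gene. Rptor, which encodes the mTORC1 scaffold Raptor, is the exception to the difference of 1, with 0.600 at DRB 5 h over a long gene, and it read 1.07 at triptolide 1 h. St5, a long gene whose product acts in MAP kinase signalling, read 1.20 without drug, 3.44 and 3.69 with DRB and 0 at both triptolide times, from 688 net reads at DRB 5 h. Like Mdm2 it therefore stood above its no-drug value, at 307%. Tet1, which encodes a 5-methylcytosine oxidase active in stem cells, read 23.1, 21.2 and 3.06, then 0 and 0. Sap30bp read 9.84, 7.45 and 8.64, then 0.0897 and 0, so its DRB values were close to no drug at both times. Nid2, a basement membrane protein gene, read 12.2, 3.14 and 6.56, then 0 and 0. Pfkfb3, which sets the level of a glycolysis activator, had a similar course of 4.34, 0.293 and 2.15, then 0 and 0. In 5 of the 12 the DRB 5 h value was above the DRB 2 h value.

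Colec11 and Rbbp8nl had low signal without drug. Colec11, a collectin of innate immunity, read 0.0687 without drug, 11.9 and 5.50 with DRB, then 0 and 0.0687 with triptolide. Rbbp8nl read 0.736, 23.5 and 10.1, then 0.327 and 0. Mcl1, a short-lived survival factor chosen after its values were seen, read 133, 93.8 and 30.5, then 0 and 0, from 136 net reads at DRB 5 h.

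The 12 with the highest lower bound of the triptolide to DRB read ratio were Chrm3, Abcg1, Gm10800, Smarca4, Gfpt2, Rest, Akr1a1, Hnrnpab, Eif2d, Capns1, Srcap and Strn4, and all 12 were listed at 0 at DRB 5 h. Of these, 7 passed a difference of 1. At DRB 2 h, 8 of the 12 had read above their triptolide 2 h value, and 7 of the 12 were listed at 0 at triptolide 1 h. The DRB 2 h column held many more reads than either triptolide column, and the 12 were picked for a low DRB 5 h value, so these counts describe the 12 genes only.

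Hnrnpab, which encodes an RNA-binding protein, read 44.3 without drug, 18.1 and 0 with DRB, then 0 and 4.89 with triptolide. Rest, which encodes a repressor of neuronal genes, read 28.2, 16.9 and 0, then 0 and 1.91. Capns1, the small calpain subunit gene, read 9.97, 10.5 and 0, then 0 and 2.43. In all 3 the late triptolide value followed a value of 0 at 1 h. Abcg1, a cholesterol exporter gene, read 1.46, 0.172 and 0, then 0.0689 and 1.36, so that it stood at 92.9% of no drug with triptolide 2 h. Smarca4, the BAF complex ATPase gene, read 4.36, 1.41 and 0, then 0.477 and 0.659, below a difference of 1. Chrm3, a muscarinic receptor gene, was listed at 0 in the other 4 conditions and read 0.565 at triptolide 2 h, from 274 net reads over a long gene. Gm10800, an unnamed predicted gene, read 66.3, 37.1 and 0, then 95.5 and 88.9, and was the member with the largest difference towards triptolide, at −6.49. It rests on 67 net reads at triptolide 2 h on a short gene.

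**Figure D3:**
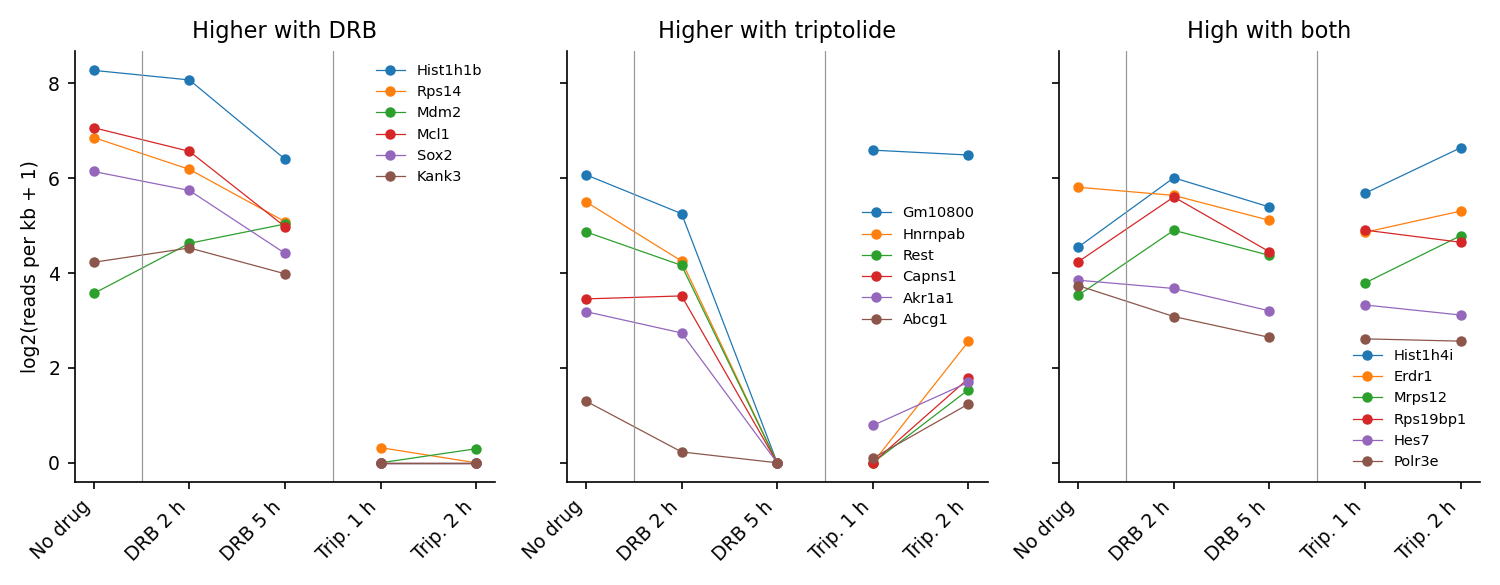
The y axis is log2(reads per kb + 1) and the x axis the 5 conditions, with lines joining no drug to the DRB times and the triptolide times to each other; each line is 1 gene with 1 value per condition. Genes higher with DRB (left) sit at or near 0 at both triptolide times, those higher with triptolide (middle) are at 0 at DRB 5 h, and the 6 plotted genes high with both (right) lie between 2 and 7 in every condition.

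A further set of genes had high values under both drugs. The 10 members with the highest smaller value of the 2 columns were Hist1h4i, Erdr1, Rps19bp1, Mrps12, Hist1h2ae, 0610039K10Rik, Gm10222, Hes7, Hist1h2an and 1700064H15Rik. Hist1h4i, a histone H4 gene, read 22.4 without drug, 63.4 and 41.0 with DRB, and 50.4 and 98.9 with triptolide, the opposite order to most histone genes. Erdr1, at the pseudoautosomal end of the sex chromosomes, read 55.1, 48.8 and 33.6, then 28.1 and 38.6, from 1066 and 1225 net reads in the late columns. Mrps12, which encodes a mitochondrial ribosomal protein, read 10.6, 28.9 and 19.7, then 12.8 and 26.6, at or above no drug in all 4 drug conditions. Rps19bp1 read 17.9, 47.7 and 20.9, then 29.0 and 24.1, also above no drug in all 4. The late read ratios of Mrps12 at 0.741 (0.488 to 1.12) and Rps19bp1 at 0.865 (0.629 to 1.19) had intervals that include 1, while Erdr1 had 0.870 (0.801 to 0.945). Not all 10 had signal throughout: Gm10222, Hist1h2ae and Hist1h2an were listed at 0 at triptolide 1 h, and Gm10222 also at DRB 2 h. Gm10222 rests on 3 and 5 net reads.

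Among the 1843 members with at least 20 net reads without drug, the median value was 11.4% of no drug at DRB 5 h, with quartiles of 3.69% and 24.4%, and 5.21% at triptolide 2 h, with quartiles of 0% and 15.0%. At or above the no-drug value stood 53 genes with DRB and 24 with triptolide. In 42 genes both late columns held at least 50% of the no-drug value, and in 34 of these both earlier columns did too. Another gene overlaps 21 of the 42, against 1172 of all 2842 members. A tRNA gene lies within the span of 7 of the 42, against 12 of the 1843. The comparisons with no drug share that column, so their values are given side by side with no relation between them.

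Genes that hold a tRNA gene in their span were members more often than others, 12 of 27 or 44.4% against 12.6% of genes without one. Their summed reads stood at 34.7% of no drug with DRB and 28.3% with triptolide, against 15.5% and 6.79% for the other members. Their read ratio was 1.23 (1.08 to 1.40), against 2.28 (2.24 to 2.31), and their median difference was −0.06. 1700064H15Rik, with an arginine and a tyrosine tRNA gene inside, read 8.58 without drug, 9.34 and 6.39 with DRB, then 8.96 and 6.23 with triptolide. Hes7, a Notch-pathway repressor gene that holds an arginine tRNA gene, read 13.4, 11.8 and 8.22, then 9.04 and 7.67. Trim7, with 2 tRNA genes inside, read 2.57, 2.92 and 1.84, then 2.34 and 1.61. In these 3 genes all 4 drug conditions lay above 50% of the value without drug, and the small late differences, 0.03, 0.09 and 0.12, turned negative under equal sums. Whether reads of the tRNA genes entered these values was not tested. The class was not uniform: of the 12 members, 3 were higher with DRB, 2 higher with triptolide and 7 within a difference of 1. Aqr, a spliceosomal helicase gene with an aspartate tRNA gene inside, read 1.57 at DRB 5 h. There 0610011F06Rik read 1.33 and Hdgfrp2 1.29, and all 3 were listed at 0 at triptolide 2 h. Higher with triptolide were Btn1a1, with a glutamate tRNA gene inside, at 2.58 and 6.85, and Ndufs7, at 0 and 1.56. Dhx9, within a difference of 1, read 0 at DRB 5 h and 0.564 at triptolide 2 h.

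The promoters of Polr3e and BC107364 are shown as those with signal in both late columns among promoters with a tRNA gene and its B box consensus, before the start of the counted gene. Both are RefSeq sequences of GRCm38.p6, 5′ to 3′ on the gene's strand: Polr3e at chr7:120917528-120917827, plus, and BC107364 at chr3:96452257-96452556, minus. The table had 4 promoters that hold a tRNA gene together with the B box consensus, and the other two belong to Ndufs7 and Polg, which were listed at 0 at DRB 5 h and read 1.56 and 0.285 at triptolide 2 h. Capitals mark the consensus letters of the B box, by which RNA polymerase III promoters inside tRNA genes are recognised, searched on both strands and chosen after the values were seen.
Polr3e: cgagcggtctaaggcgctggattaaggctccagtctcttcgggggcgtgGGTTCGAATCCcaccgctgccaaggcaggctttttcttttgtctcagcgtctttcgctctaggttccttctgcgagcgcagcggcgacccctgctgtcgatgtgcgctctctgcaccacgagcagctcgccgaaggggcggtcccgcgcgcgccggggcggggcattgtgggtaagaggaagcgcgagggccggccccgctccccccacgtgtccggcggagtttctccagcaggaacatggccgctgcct
BC107364: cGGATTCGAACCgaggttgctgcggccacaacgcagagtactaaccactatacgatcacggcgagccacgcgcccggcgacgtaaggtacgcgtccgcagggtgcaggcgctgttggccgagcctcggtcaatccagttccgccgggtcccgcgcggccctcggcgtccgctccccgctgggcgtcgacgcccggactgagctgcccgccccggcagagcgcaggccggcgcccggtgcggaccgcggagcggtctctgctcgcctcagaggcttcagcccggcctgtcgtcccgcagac
The leucine tRNA gene n-TLaag4 covers the B box of Polr3e, and the histidine tRNA gene n-THgtg7 that of BC107364, where it lies on the other strand.

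Polr3e, which encodes a subunit of RNA polymerase III itself, read 12.3 without drug, 7.48 and 5.25 with DRB, then 5.12 and 4.92 with triptolide. Its late reads were 156 and 146, a ratio of 1.07 (0.847 to 1.35), and the difference of 0.08 turned negative under equal sums. BC107364, which also holds tRNA genes in its span, read 4.37, 6.26 and 4.91, then 5.51 and 5.56, a ratio of 0.883 (0.659 to 1.18). The B box consensus stood in 24 of 15629 promoters, 0.154%, and in 8 of the 2073 member promoters, 0.386%. Among those 8, Chchd1 and Ndufs7 were listed at 0 at DRB 5 h, so the letters did not go with one pattern.

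Calls and read ratios differed by gene span. The shortest genes, up to 2 kb, had the highest shares past a difference of 1 in both directions, with 113 of 341 (33.1%) higher with DRB and 84 (24.6%) with triptolide. From 2 to 10 kb the shares were 22.1% and 13.2%, and from 10 to 50 kb 16.8% and 2.67%. Above 100 kb, 4 of 51 genes were higher with DRB and 0 with triptolide. The pooled read ratio was 1.53 (1.37 to 1.70) up to 2 kb, 1.72 (1.65 to 1.78) from 2 to 10 kb, 2.08 (2.03 to 2.12) from 10 to 50 kb, 3.30 (3.17 to 3.44) from 50 to 100 kb and 3.20 (3.05 to 3.36) above. A short gene reaches 0.5 reads per kilobase with 1 read, so reads per gene change with span too, and their part in these shares was not tested. Genes of 1 exon outside the histone list had a pooled ratio of 1.48 (1.24 to 1.76), with 48 of 158 higher with DRB.

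Among genes above 20 reads per kilobase without drug, 160 of 286 members (55.9%) were higher with DRB and 35 (12.2%) with triptolide. From above 0 to 1 read per kilobase these were 39 (12.1%) and 6 (1.86%) of 322. The pooled read ratios of the 4 level classes, from the lowest, were 2.17 (2.07 to 2.27), 2.04 (1.99 to 2.10), 2.40 (2.34 to 2.47) and 2.998 (2.87 to 3.13). Outside the histone, ribosomal protein and p53 lists, 84 of 190 members above 20 (44.2%) were higher with DRB and 26 (13.7%) with triptolide. There the pooled ratio was 2.03 (1.94 to 2.13). Genes of high starting level thus passed the size rule more often in both directions, and the lists' own shares (87.2%, 73.3% and 66.7%) are to be read beside it.

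**Figure D4:**
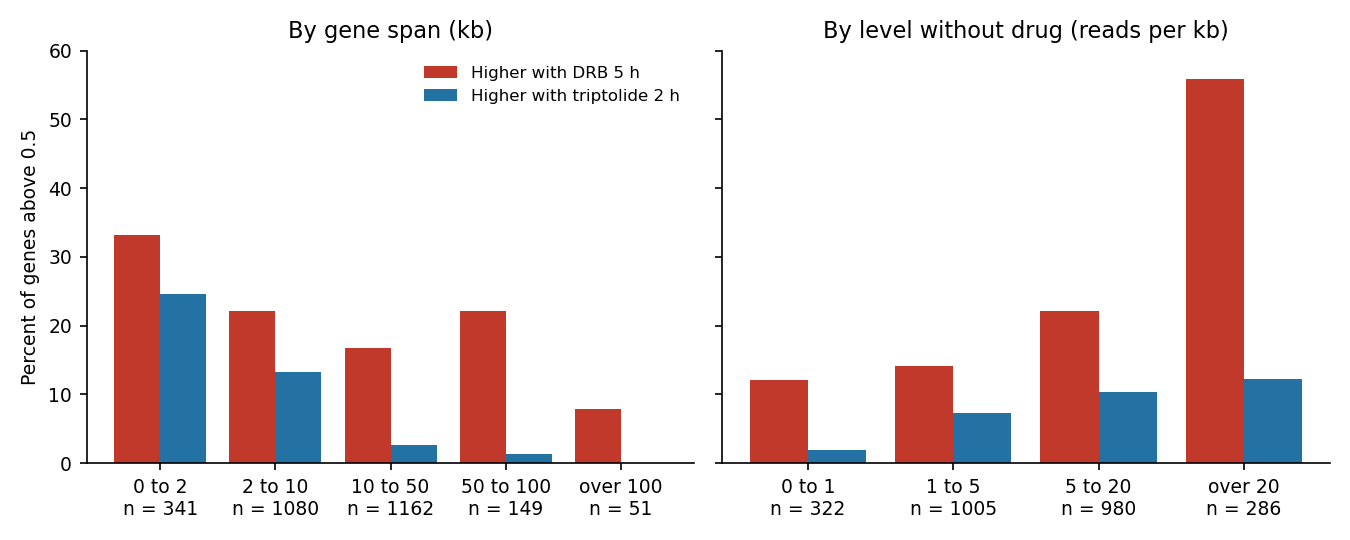
Bars give the percent of members whose log2(reads per kb + 1) differed by 1 or more, higher with DRB 5 h in red and higher with triptolide 2 h in blue, by gene span (left) and by level without drug (right, genes above 0 there); n is the number of members per class. The triptolide share drops from 24.6% to 0% with span, and the DRB share reaches 55.9% in genes above 20 reads per kilobase without drug.

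The earlier times, DRB 2 h and triptolide 1 h, used columns that had no part in choosing the members. Of the 602 genes higher with DRB at the late times, 447 (74.3%) were also at least 1 higher with DRB at the earlier times and 8 were higher with triptolide. All members had 47.3% higher with DRB there and 1.65% with triptolide, as the DRB 2 h column held many more reads. With the earlier columns at equal sums, 304 of the 602 (50.5%) were higher with DRB and 28 (4.65%) with triptolide, against 24.8% and 7.32% of all members. For the 294 with at least 20 net reads the counts were 176 (59.9%) and 1.

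All 44 ribosomal protein genes, 39 of 41 histone genes and 6 of 8 p53 targets that were DRB-high late were so at the earlier times on the deposited scale. Of the 268 triptolide-high genes, 22 (8.21%) were higher with triptolide at the earlier times and 142 (52.99%) higher with DRB, against 1.65% and 47.3% of all members. At equal sums these were 46 (17.2%) and 95 (35.4%), against 7.32% and 24.8%. Both shares were thus above those of all members. Of the 29 with at least 20 net reads, 8 were higher with triptolide and 6 with DRB at equal sums.

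**Figure D5:**
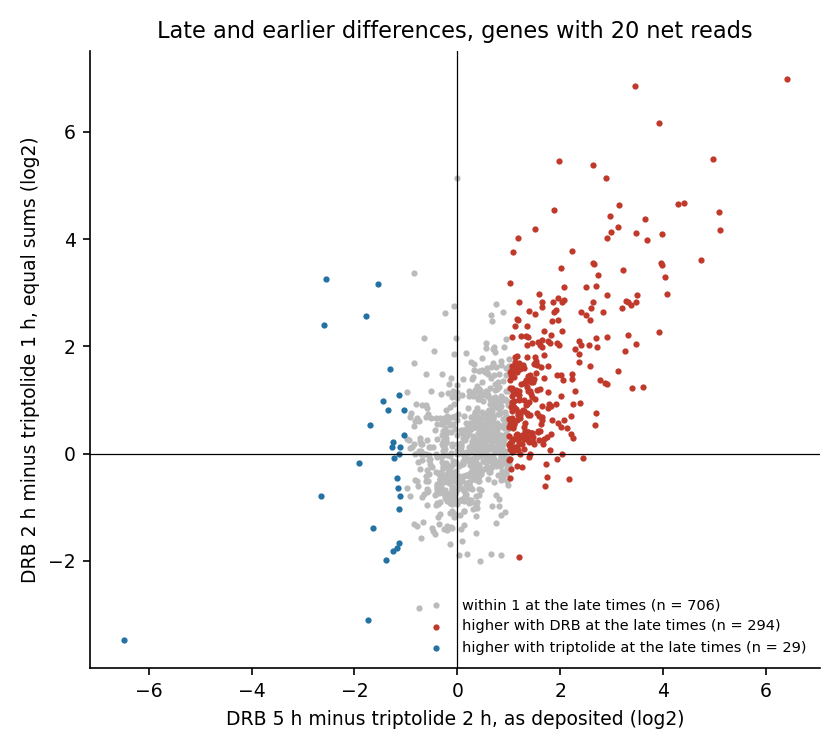
For the 1029 genes with at least 20 net reads in the late columns, the x axis is DRB 5 h minus triptolide 2 h as deposited and the y axis DRB 2 h minus triptolide 1 h at equal sums, both differences of log2(reads per kb + 1). Of the 294 genes high with DRB late (red), 277 lie above 0 on the y axis, whereas the 29 high with triptolide late (blue) lie on both sides, 14 above and 15 below.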

How the data were processed

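Per the labels, 10 labelled and 10 unlabelled samples of E14-WT cells were grouped by drug, time and labelling. The submitters' processing notes name Bowtie and the builds GRCm38 and mm10. Per the file headers, the deposited signal is in reads per kilobase, negatives are replaced by 0, and each condition has 1 column. How replicates were combined, background subtracted or strand used is not given in the sources used here, so the planned limma test on replicate columns was replaced by values without a test.

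Net reads are each value divided by the gene's step, 1 read over its length in kilobases, which was matched to the GENCODE M21 span within 20% where possible; 175 members have a length from the step alone. The recovery was also run on counts simulated from the recovered lengths and the same spans, which cannot show whether those lengths are right. Differences are log2(value + 1), DRB minus triptolide, and the size rule is at least 1. tRNA genes and promoters are from RefSeq GRCm38.p6, with promoters matched by identifier, symbol or synonym. Named genes are the 12 highest lower bounds of the read ratio in each direction, the 10 highest in both columns, up to 3 members per list by reads, and 20 fixed genes. Other genes with values (Hist1h1a, Hist1h1b, Hist1h4b, Klf2, Mcl1, Polr3e, BC107364, Trim7, Btn1a1, Aqr and the list members whose directions or read sums are stated) were added after values were seen. So were 0610011F06Rik, Hdgfrp2, Ndufs7 and Dhx9. The members and lists were chosen with earlier results of these data known. Genes were read with Python 3.11.15, pandas 2.3.3, NumPy 2.4.6 and SciPy 1.17.1.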

Additional observations from a re-analysis of the deposited data

How the results depend on the processing

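With a pseudocount of 0.5 in place of 1, 1180 genes were higher with DRB, 690 with triptolide, and the median difference was 0.60. With a pseudocount of 5 these were 101, 17 and 0.12. At equal sums of net reads, 424 genes were higher with triptolide and the median was 0.19, at equal medians of values above 0 the median was 0.32, and under quantile normalization these were 472 and 0.20. Members above 1 had a median of 0.86, and with no filter on low values 12805 genes had 0.0023. With at least 20 net reads the values were 294, 29 and 0.55. Counts stayed within 1.5 times the main ones without genes that hold a tRNA or small RNA gene (535 and 252), without genes under 2 kb (489 and 184) and, chosen after the data were seen, without the 10 members with most reads (596 and 268). Of 17 lists, 11 had a median above that of all members, and 11 or 12 under the alternatives in scale and pseudocount. Of 114 named gene differences, 42 moved beyond their counting interval at equal sums and 50 under quantile normalization. The cause was not tested. No paired analysis was possible because the deposited table holds 1 column per condition, and no replicate could be left out for the same reason. Depth limits single-gene ratios: 1029 of 2842 members had at least 20 net reads, and 341 had 2 or fewer.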

Other observations

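Olfactory receptor genes, which stem cells are not known to use, served as a reference for low signal. Of 1108 in the table, 18 were members, 4 (22.2%) higher with DRB and 6 (33.3%) with triptolide, against 21.2% and 9.43% of all members. The summed level of the 1108 genes was 6.94 reads per kilobase without drug, 5.39 at DRB 2 h, 10.3 at DRB 5 h, 16.5 at triptolide 1 h and 10.7 at triptolide 2 h. Olfr91 read 2.13 at DRB 5 h and was listed at 0 in the other 4 conditions, from 16 net reads. Olfr221, with 1.89, and Olfr366, with 1.08, were listed above 0 at triptolide 2 h alone, from 16 and 14 net reads. Like Chrm3, they passed 0.5 reads per kilobase in 1 column only.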
